A study of Mus musculus with 9 samples.

Results

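The genes described here encode the NLRP3 inflammasome and the interleukin-1 system: 10 genes of the 53465 in the deposited expression table, taken by their symbols. They are the sensor Nlrp3, the adaptor Pycard, the proteases Casp1 and Casp4, the pore-forming protein Gsdmd, the cytokines Il1a, Il1b and Il18, the signalling receptor Il1r1 and the receptor antagonist Il1rn. RNA was sequenced from freshly isolated mouse ventral hippocampus in 3 groups of 3 libraries, and the labels of all 3 groups carry the prefix CRS, so no group without it enters any comparison. CRS-WT is the wild-type group, CRS-NKAα1+/- is heterozygous for NKAα1, a catalytic subunit of the sodium pump, and CRS-WT-DR5-12D is wild type with DR5-12D; they are called the wild-type, heterozygous and DR5-12D groups from here on. The labels used here give no strain, age, dose or time, and do not say whether each library is a separate animal, so p-values measure only the spread between these libraries, which may be technical.

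Inflammasomes are cytosolic complexes of myeloid cells, and microglia are their main source in brain tissue. NLRP3 senses cell damage and recruits the adaptor ASC, encoded by Pycard, which brings in caspase-1; caspase-1 then cleaves the precursors of IL-1β and IL-18 and opens gasdermin D pores in the membrane. Transcription of Nlrp3 and Il1b is the priming step of this pathway, while Casp1, Pycard and Il18 are present in resting cells. The transcripts measured here report on that RNA step and carry no information on complex assembly or cleavage.

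Values are FPKM, fragments scaled to exon length and to library size, as the authors deposited them, and each value was converted back to a whole number of fragments. The implied depth was 15117452 to 27323380 fragments per library. Differences were tested with limma on log2(FPKM + 1) across the 17753 genes with a mean of at least 0.5 FPKM, with Benjamini-Hochberg adjustment over all of them and a threshold of 0.05. Of the 10 genes, 9 passed that filter; Il1rn, at a mean of 0.163 FPKM, did not and was tested on its own.

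In their cell type markers, 3 libraries stood apart. Summed FPKM of dentate granule cell markers was 10.3 and 7.95 in heterozygous replicates 1 and 2 and 9.86 in DR5-12D replicate 1, against 45.8 to 75.8 in the other 6 libraries. Summed microglial markers ranged from 143 to 185 FPKM in the wild-type group, from 162 to 210 in the heterozygous group and from 107 to 142 in the DR5-12D group, with 8 of 8 markers detected. Neutrophil markers, 10 of 10 of them above 0 in at least 1 library, summed to 11.6 to 38.0 FPKM in the wild-type group, 27.7 to 189 in the heterozygous group and 1.52 to 2.29 in the DR5-12D group. In this bulk tissue, fewer cells of a type and less RNA per cell cannot be told apart.

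The 3 promoters shown first belong to Il1b, Il1a and Nlrp3, which among the 9 tested genes had the largest ratios of means between the heterozygous and DR5-12D groups. The last belongs to Casp4, which among those 9 had the largest ratio of means of the wild-type over the DR5-12D group. Each is the 250 bases upstream of a start of the gene in the RefSeq promoter table (GRCm38.p6), written 5′ to 3′ on the coding strand; of the 10 genes, 9 matched that table. In Casp4 the last 21 of these bases, and in Nlrp3 the last 1, are exonic in GENCODE vM21. Capitals mark matches on either strand to the NF-κB consensus, to TATAAA, to TGANTCA (the AP-1 motif), to GAGGAA (a PU.1 core) or to TTNCNNAA (a C/EBP motif).
Il1b, chr2:129371140-129371389, minus strand: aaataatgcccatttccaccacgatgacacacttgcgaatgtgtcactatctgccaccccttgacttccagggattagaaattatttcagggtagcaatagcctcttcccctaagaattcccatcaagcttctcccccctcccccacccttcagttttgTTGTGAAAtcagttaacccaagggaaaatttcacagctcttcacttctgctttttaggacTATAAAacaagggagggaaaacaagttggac
Il1a, chr2:129309973-129310222, minus strand: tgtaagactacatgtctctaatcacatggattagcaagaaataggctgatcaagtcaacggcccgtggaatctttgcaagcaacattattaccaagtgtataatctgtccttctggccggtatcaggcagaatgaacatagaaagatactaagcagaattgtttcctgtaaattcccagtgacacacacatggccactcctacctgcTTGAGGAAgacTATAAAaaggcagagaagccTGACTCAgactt
Nlrp3, chr11:59541319-59541568, plus strand: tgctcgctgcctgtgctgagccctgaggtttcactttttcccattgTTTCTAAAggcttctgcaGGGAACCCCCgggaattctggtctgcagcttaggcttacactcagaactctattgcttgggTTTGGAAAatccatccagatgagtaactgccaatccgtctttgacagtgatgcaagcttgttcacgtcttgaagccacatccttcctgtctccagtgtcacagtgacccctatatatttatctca
Casp4, chr9:5308599-5308848, plus strand: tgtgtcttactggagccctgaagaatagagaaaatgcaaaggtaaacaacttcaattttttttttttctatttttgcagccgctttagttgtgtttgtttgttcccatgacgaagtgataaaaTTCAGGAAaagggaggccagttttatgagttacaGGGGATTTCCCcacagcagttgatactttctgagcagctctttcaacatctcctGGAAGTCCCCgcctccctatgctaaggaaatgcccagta

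Il1b and Il1a each held TATAAA, beginning 31 and 32 bases upstream of the start, a motif found in 12.4% of the 32851 promoter windows in the table. Il1a also held TGANTCA 12 bases upstream, a motif in 6.75% of windows, and a GAGGAA that lies within a TTNCNNAA match. The NF-κB consensus, present in 5% of windows, occurred once in Nlrp3, 186 bases upstream, and 3 times in Casp4, where a pair of matches overlap. TTNCNNAA is common, at 36.8% of windows, and GAGGAA was in 23.3%. These matches describe the printed letters and are not shown to be sites.

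Il1b, the cytokine produced on priming of myeloid cells, had the largest ratio of means among the tested genes. Il1b lies on chromosome 2 from 129364570 to 129371139 on the minus strand (ENSMUSG00000027398), with 1.31% of its exon bases shared with the opposite-strand gene Il1bos. Il1b stood at 0.557, 1.32 and 0.387 FPKM in the wild-type group (29, 38 and 16 fragments), 5.19, 19.1 and 40.7 in the heterozygous group (155, 824 and 2033 fragments) and 0.520, 0.304 and 0.322 in the DR5-12D group (26, 11 and 10 fragments). All heterozygous libraries lay above every other library, while the remaining groups overlapped.

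The Il1b means were 0.754 ± 0.496 (SD, n = 3) in the wild-type group, 21.7 ± 17.9 in the heterozygous group and 0.382 ± 0.120 in the DR5-12D group. Il1b was lower in the DR5-12D group than in the heterozygous group by limma, with a log2 fold change of −3.65 ± 0.58 (SE; 95% interval −4.97 to −2.33, adjusted p = 0.0423), and the ratio of the means was 56.7. This was the only one of the 9 tested genes called in any comparison, and that comparison called 0.513% of all tested genes, with 0.501% called lower and 0.0113% higher. That call did not hold in 12 of 20 alternative analyses, in all of which the direction was the same and the adjusted p ranged from 0.00293 to 0.233. Among the losses were an unfiltered fit (adjusted p = 0.107) and a fit of the recovered counts (0.233); the call was also lost without any 1 of the 3 wild-type or 3 DR5-12D libraries, without heterozygous replicate 2 (0.140) and without replicate 3 (0.0507).

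The heterozygous group exceeded the wild-type group 28.7-fold in mean Il1b, at a log2 fold change of 3.34 ± 0.58 (95% interval 2.01 to 4.66) that did not pass adjustment (limma adjusted p = 0.109). Relative to the wild-type mean, the 3 heterozygous libraries stood at 6.89, 25.3 and 54.0. Without heterozygous replicate 1 the difference was 4.08 ± 0.33 and passed (adjusted p = 0.00783). The DR5-12D group against the wild-type group gave −0.31 ± 0.58 (95% interval −1.64 to 1.01, adjusted p = 0.836).

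Il1a, an alarmin that acts without cleavage by caspase-1, lies 54.6 kb from Il1b on chromosome 2 (129299610 to 129309972, minus strand, ENSMUSG00000027399), with 2 annotated genes between them. Its FPKM was 0.445, 1.17 and 0.818 in the wild-type group, 2.85, 4.12 and 19.4 in the heterozygous group and 0.657, 0.454 and 0.342 in the DR5-12D group. Again the heterozygous libraries lay above all others, with replicate 3, at 1004 fragments, far above its 2 companions at 88 and 184. The opposite-strand gene Gm14023 shares 11.2% of the Il1a exon bases, and the sources used here do not say whether counting used strand.

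Against the wild-type group, the Il1a log2 fold change in the heterozygous group was 2.05 ± 0.53 (95% interval 0.83 to 3.27, adjusted p = 0.238), with means of 8.79 ± 9.22 and 0.812 ± 0.364 FPKM. Against the heterozygous group, the DR5-12D group stood at −2.32 ± 0.53 (adjusted p = 0.139), and at −1.59 (adjusted p = 0.0386) without heterozygous replicate 3. The DR5-12D group differed from the wild-type group by −0.27 ± 0.53 (adjusted p = 0.842), with overlapping libraries.

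Nlrp3, the sensor that gives the inflammasome its name, lies on chromosome 11 (59541568 to 59566956, plus strand, ENSMUSG00000032691). It stood at 0.325, 0.505 and 0.295 FPKM in the wild-type group, 0.756, 0.936 and 4.44 in the heterozygous group and 0.150, 0.182 and 0.136 in the DR5-12D group. All 3 groups were apart, with the DR5-12D group lowest and the heterozygous group highest, an order in which 0.71% of all tested genes had their groups apart. The DR5-12D group rested on 9 to 16 fragments per library, and heterozygous replicate 3 on 472.

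Nlrp3 differed from the wild-type group by 0.95 ± 0.37 in the heterozygous group (95% interval 0.095 to 1.80, limma adjusted p = 0.332) and by −0.25 ± 0.37 in the DR5-12D group (adjusted p = 0.789), and the DR5-12D group differed from the heterozygous group by −1.19 ± 0.37 (adjusted p = 0.314). Nlrp3 passed the filter only through the heterozygous group, since the means were 0.375 ± 0.114 FPKM in the wild-type group, 2.04 ± 2.08 in the heterozygous group and 0.156 ± 0.0234 in the DR5-12D group. Because 1 is added to every FPKM, the log2 values understate ratios at such low levels. The ratio of means was 5.45 for the heterozygous group over the wild-type group and 2.40 for the wild-type group over the DR5-12D group. Without heterozygous replicate 3, the first difference was 0.43 ± 0.13 (adjusted p = 0.110).

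**Figure D1:**
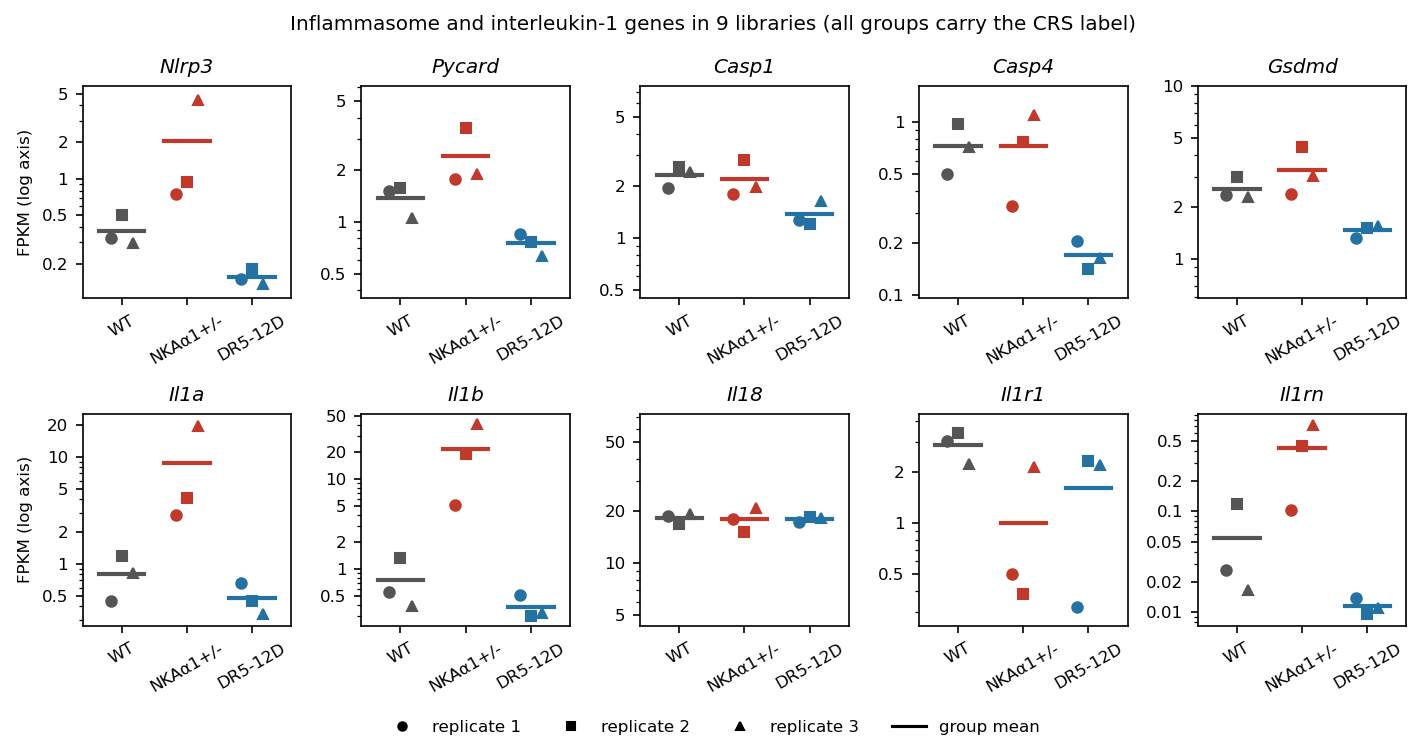
FPKM of the 10 genes on log axes, with 1 point per library, the shape giving the replicate number, and a line at each group mean. Il1b in the heterozygous group runs from 5.19 to 40.7 FPKM, above all other libraries, whereas Il18 stays between 15.2 and 20.9 FPKM throughout.

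Pycard, which encodes the adaptor ASC, was the other gene with all 3 groups apart. It lies on chromosome 7 (127989708 to 127993867, minus strand, ENSMUSG00000030793) and shares 12.8% of its exon bases with the opposite-strand gene Gm45205. Pycard measured 1.50, 1.57 and 1.06 FPKM in the wild-type group, 1.76, 3.50 and 1.90 in the heterozygous group and 0.853, 0.762 and 0.629 in the DR5-12D group. By ratios of means, 1.74 for the heterozygous group over the wild-type group and 1.84 for the wild-type group over the DR5-12D group, the groups were closer than for Nlrp3, and replicate 2, not replicate 3, was highest in the heterozygous group.

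The Pycard log2 fold change was 0.48 ± 0.19 in the heterozygous group against the wild-type group (adjusted p = 0.329), −0.44 ± 0.19 in the DR5-12D group against the wild-type group (adjusted p = 0.373) and −0.92 ± 0.19 in the DR5-12D group against the heterozygous group (adjusted p = 0.0953). The last had a 95% interval of −1.35 to −0.49.

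Casp1, the protease that processes IL-1β and IL-18, had a different pattern: the heterozygous group overlapped the wild-type group and only the DR5-12D group lay below both. Its FPKM on chromosome 9 (5298517 to 5307265, plus strand, ENSMUSG00000025888) was 1.96, 2.56 and 2.40 in the wild-type group, 1.79, 2.83 and 1.96 in the heterozygous group and 1.27, 1.20 and 1.64 in the DR5-12D group. The mean was 2.31 ± 0.315 in the wild-type group against 1.37 ± 0.236 in the DR5-12D group, a difference of −0.48 ± 0.14 (95% interval −0.80 to −0.16, limma adjusted p = 0.226). The heterozygous group against the wild-type group gave −0.059 ± 0.14 (95% interval −0.38 to 0.26).

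Casp4 encodes mouse caspase-11, which cleaves gasdermin D in response to cytosolic lipopolysaccharide, and lies 1562 bp downstream of Casp1 with no annotated gene between them. It spans 5308828 to 5336783 on chromosome 9, plus strand (ENSMUSG00000033538). Casp4 stood at 0.503, 0.981 and 0.721 FPKM in the wild-type group, 0.327, 0.774 and 1.10 in the heterozygous group and 0.206, 0.142 and 0.165 in the DR5-12D group. The DR5-12D group lay below every other library, at 10 to 20 fragments each, and the ratio of the wild-type mean to its mean was 4.30.

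The Casp4 log2 fold change in the DR5-12D group was −0.56 ± 0.18 against the wild-type group (95% interval −0.96 to −0.15, adjusted p = 0.256) and −0.54 ± 0.18 against the heterozygous group (adjusted p = 0.351). The heterozygous group against the wild-type group was −0.017 ± 0.18 and took the other sign under several alternatives, so no direction is given.

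Gsdmd, which encodes the pore-forming protein cleaved by caspase-1 and caspase-11, lies on chromosome 15 (75862327 to 75867408, plus strand, ENSMUSG00000022575). Its FPKM was 2.35, 2.98 and 2.28 in the wild-type group, 2.37, 4.47 and 3.03 in the heterozygous group and 1.33, 1.51 and 1.55 in the DR5-12D group, with every library of the last group below all others. The log2 fold change was −0.52 ± 0.17 in the DR5-12D group against the wild-type group (adjusted p = 0.265) and −0.77 ± 0.17 against the heterozygous group (95% interval −1.16 to −0.39, adjusted p = 0.118), the latter −0.93 (adjusted p = 0.0399) without heterozygous replicate 1. The heterozygous group against the wild-type group gave 0.26 ± 0.17, and −0.12 when values were rescaled to TPM.

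Il18, the other cytokine processed by caspase-1, was the most abundant of the 10 genes in the wild-type group and differed little between libraries in FPKM. It lies on chromosome 9 (50554827 to 50581840, plus strand, ENSMUSG00000039217). Il18 was 18.9, 16.8 and 19.3 FPKM in the wild-type group, 18.0, 15.2 and 20.9 in the heterozygous group and 17.2, 18.5 and 18.3 in the DR5-12D group. The 95% intervals of its log2 differences were −0.28 to 0.22, −0.27 to 0.23 and −0.24 to 0.26 for the heterozygous group against the wild-type group, the DR5-12D group against the wild-type group and the DR5-12D group against the heterozygous group. Among 20 alternative analyses, the first difference fell as low as −0.50 and was called in 1 (limma adjusted p = 0.0483). The second fell as low as −0.39 and was called in 0, so this stability depends on the scale and settings.

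Ratios within a library set these genes against each other per length. Il1b over Il18 was 0.0201 to 0.0784 in the wild-type group, 0.288 to 1.95 in the heterozygous group and 0.0164 to 0.0302 in the DR5-12D group. Il1b over Il1a was 0.473 to 1.25, 1.82 to 4.64 and 0.670 to 0.941 in the same order. By both ratios the heterozygous libraries lay above every other library.

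**Figure D2:**
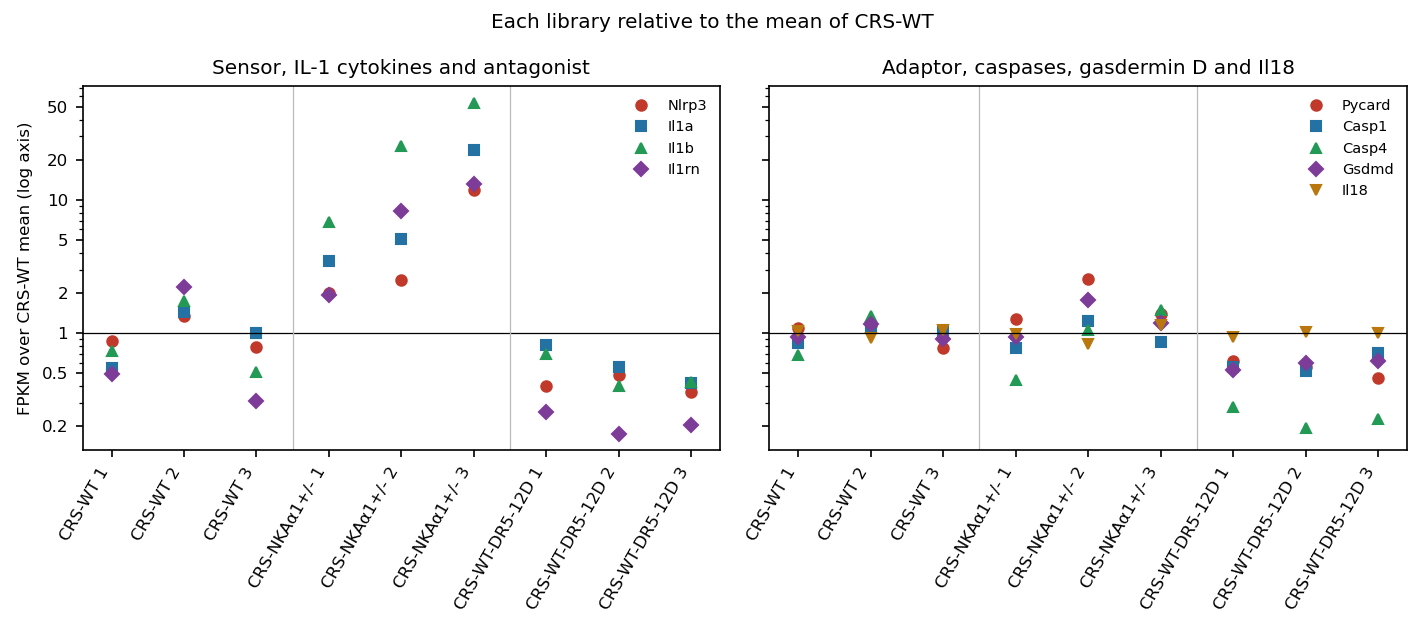
Each library's FPKM over the wild-type mean of the same gene, on a log axis, with Nlrp3, Il1a, Il1b and Il1rn on the left and Pycard, Casp1, Casp4, Gsdmd and Il18 on the right. In the heterozygous group the Il1b ratios are 6.89, 25.3 and 54.0 while in the DR5-12D group the Casp4 ratios are 0.28, 0.19 and 0.22.

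Il1r1, the receptor through which IL-1α and IL-1β signal, lies on chromosome 1 (40225080 to 40317257, plus strand, ENSMUSG00000026072). It was at 3.03, 3.39 and 2.22 FPKM in the wild-type group, 0.502, 0.382 and 2.14 in the heterozygous group and 0.324, 2.31 and 2.20 in the DR5-12D group. The 3 lowest values, 0.324 to 0.502 FPKM, were those of the 3 libraries low in dentate granule cell markers, and the other 6 libraries ranged from 2.14 to 3.39. In mouse brain the dentate gyrus is a known site of Il1r1 expression in neurons.

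By limma, Il1r1 in the heterozygous group against the wild-type group was −1.04 ± 0.41 (95% interval −1.98 to −0.10, adjusted p = 0.333). With the dentate marker level as a covariate it was −0.030 ± 0.14 (adjusted p = 0.965), and without the 3 low-dentate libraries, which leaves heterozygous replicate 3 alone in its group, −0.29 ± 0.18 (adjusted p = 0.720). The comparison of the DR5-12D group with the wild-type group moved from −0.67 ± 0.41 to −0.20 ± 0.11 and −0.24 ± 0.15 in those fits.

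Il1rn encodes the antagonist that occupies IL1R1 without signalling, on chromosome 2 (24336853 to 24351494, plus strand, ENSMUSG00000026981). It was counted at 4, 10 and 2 fragments in the wild-type group, 9, 56 and 104 in the heterozygous group and 2, 1 and 1 in the DR5-12D group. These correspond to 0.0264, 0.120 and 0.0167 FPKM, then 0.104, 0.447 and 0.717, then 0.0138, 0.00951 and 0.0111. By FPKM the DR5-12D group lay below every other library, but wild-type replicate 3 and DR5-12D replicate 1 each had 2 fragments. Those 2 libraries differ in FPKM (0.0167 and 0.0138) only through their depth. The lowest heterozygous library fell inside the range of the wild-type group.

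Exact two-sided permutation tests of Il1rn gave p = 0.2 for the heterozygous group against the wild-type group and p = 0.1 for each comparison with the DR5-12D group, where 0.1 is the smallest p that 3 against 3 libraries allow. Over all 3 groups the exact permutation p was 0.0393. Within a library, Il1b exceeded Il1rn 11.0 to 23.2 times in the wild-type group and 42.7 to 56.7 times in the heterozygous group; in the DR5-12D group, on 1 or 2 Il1rn fragments per library, the range was 29.0 to 37.7. The 3 ranges did not overlap, but Il1rn had only 2 to 10 fragments per wild-type library. Their order therefore rests on few fragments.

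**Figure D3:**
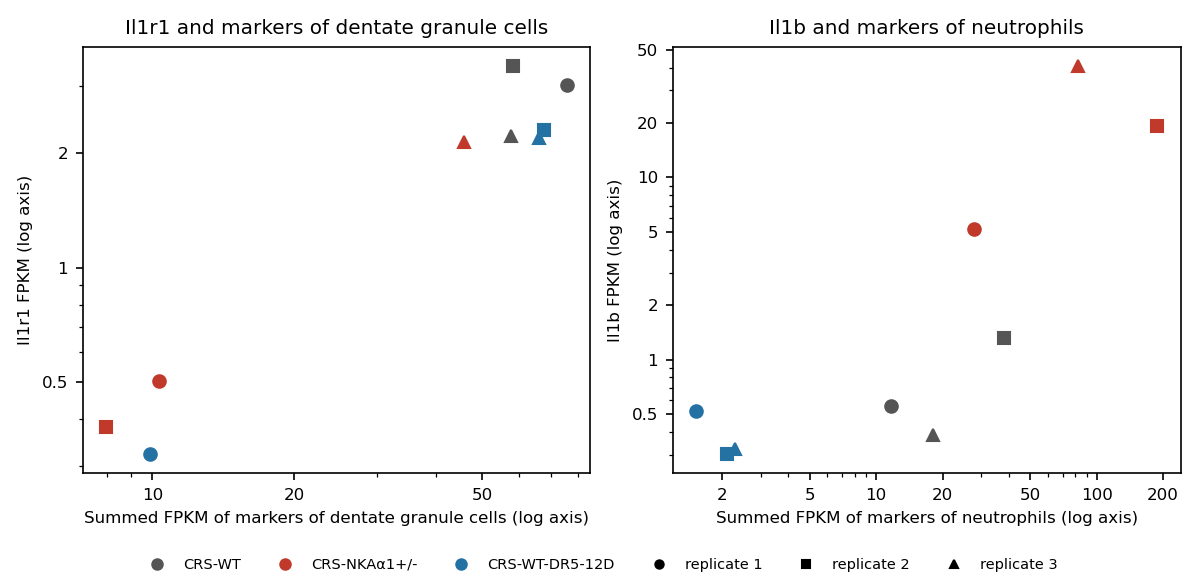
Il1r1 FPKM against the summed FPKM of dentate granule cell markers, and Il1b FPKM against that of neutrophil markers, on log axes with 1 point per library. The 3 libraries low in dentate markers have Il1r1 at 0.324 to 0.502 FPKM, and Il1b is highest in the heterozygous group, where neutrophil markers sum to 27.7 to 189 FPKM.

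Counted together, the heterozygous group against the wild-type group called 0 of the 9 tested genes by limma, where 0.0225% of all tested genes were called. At an unadjusted p under 0.05, 4 were higher (Nlrp3, Pycard, Il1a and Il1b) and 1 was lower (Il1r1), and these are also the 5 whose libraries did not overlap. Nlrp3 passed the filter only through the heterozygous group, so its place in these and the later counts and medians adds no support. Over all tested genes 14.1% passed that p, 7.6% higher and 6.51% lower, and 10.9% and 10% did not overlap in the same directions. The median log2 fold change was 0.26 over the 9 genes and 0.0091 over all, and −0.12 and −0.42 with values rescaled to TPM.

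In the DR5-12D group against the wild-type group, 0 of 9 were called, where 0.0282% of all tested genes were. The fold change was below 0 for 9 of 9 genes, with a median of −0.44 against 0.0071 over all; with the dentate covariate Nlrp3, Il1a and Il18 were above 0. Nlrp3, Pycard, Casp1, Casp4 and Gsdmd did not overlap, each lower, and the last 4 had an unadjusted p under 0.05; over all genes 11.4% did not overlap in that direction (and 11.4% in the other), and 13% passed that p, 6.71% lower and 6.33% higher. Summed microglial markers were also lower in each DR5-12D library (107 to 142 FPKM) than in each wild-type library (143 to 185 FPKM), and their part in these values was not tested.

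The DR5-12D group against the heterozygous group called Il1b alone. At an unadjusted p under 0.05, 7 of 9 were lower, the exceptions being Il18 and Il1r1, and the same 7 did not overlap; over all genes 8.83% passed that p, 5.5% lower and 3.33% higher, and 7.15% did not overlap in that direction, with 5.35% in the other. Nlrp3, among those 7, passed the filter only through the heterozygous group. The median was −0.77 over the 9 genes and 0.0065 over all. These comparisons share libraries pairwise and are not independent of each other. A test over all 3 groups called 0 of 9, with Il1b at an adjusted p of 0.0657, where 0.27% of all tested genes were called; 7 of the 9 had an unadjusted p under 0.05, as did 13.7% of all.

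**Figure D4:**
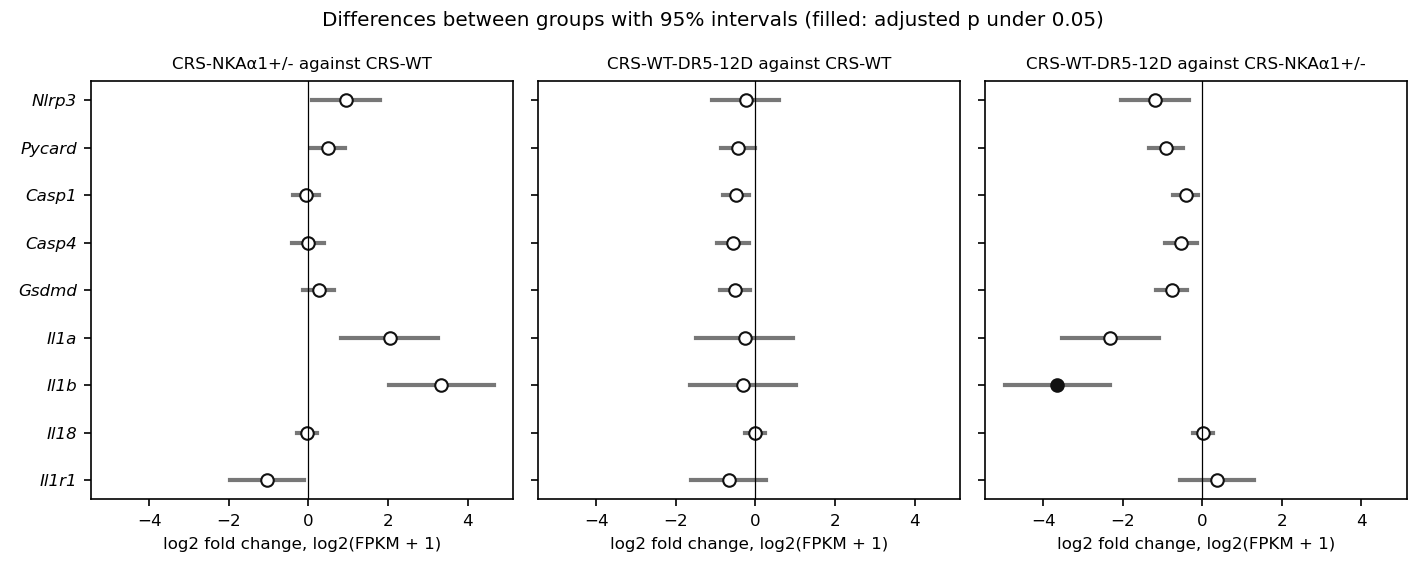
Log2 fold changes of the 9 tested genes on the log2(FPKM + 1) scale, with 95% intervals, in the 3 comparisons; a filled point marks an adjusted p under 0.05. Il1b in the DR5-12D group against the heterozygous group, at −3.65, is the only filled point.

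Markers of other cell types also differed between the groups. Neutrophil markers per library were 11.6, 38.0 and 18.2 FPKM in the wild-type group, 27.7, 189 and 82.1 in the heterozygous group and 1.52, 2.10 and 2.29 in the DR5-12D group, with Elane at 0 in the heterozygous group and the DR5-12D group and Ly6g at 0 in the DR5-12D group. The sums were mostly S100a8 and S100a9, at 59.2 and 111 FPKM in heterozygous replicate 2, and 4 of the 10 markers passed the filter. Mpo ran otherwise, at 0.148 to 0.246 FPKM in the wild-type group, 0.0516 to 0.178 in the heterozygous group and 0.0668 to 0.376 in the DR5-12D group. Heterozygous replicate 2 had the highest neutrophil sum and replicate 3 the highest Il1b, Il1a and Nlrp3. Monocyte and border macrophage markers, 8 of 8 detected, summed to 27.0 to 42.5 FPKM in the wild-type group, 18.7 to 52.5 in the heterozygous group and 8.66 to 11.6 in the DR5-12D group, so the first 2 of these ranges overlapped. These sums were mostly Lyz2, at 23.3 to 37.7 FPKM in the wild-type group and 7.01 to 8.68 in the DR5-12D group. Of the 8 markers, 3 passed the filter. Among those 3, Pf4 ran otherwise, at 0.761, 1.19 and 0.831 FPKM in the wild-type group and 0.899, 1.31 and 2.30 in the DR5-12D group. Red blood cell markers were lower in the heterozygous group, at 34.6 to 65.8 FPKM against 85.6 to 310 in the wild-type and 150 to 277 in the DR5-12D group. Against the wild-type group 5 of 5 did not overlap, where 10% of all tested genes did not overlap in that direction. The highest heterozygous value was close to the lowest wild-type value for Hbb-bs (45.2 and 46.2 FPKM) and Alas2 (1.22 and 1.32 FPKM). Oligodendrocyte markers were at 198 to 348 FPKM in the heterozygous group against 460 to 652 in the wild-type and 362 to 693 in the DR5-12D group. Astrocyte markers summed to 238 to 309, 198 to 270 and 123 to 188 FPKM in the wild-type, heterozygous and DR5-12D groups. Of these 5 markers only Gfap was apart between the wild-type group (126 to 186 FPKM) and the DR5-12D group (15.3 to 71.7 FPKM). Over all tested genes 11.4% did not overlap in that direction. Endothelial markers summed to 53.2 to 58.6, 46.4 to 75.3 and 31.8 to 43.0 FPKM in the same group order. The part of these cell types in the differences was not tested.

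Companion genes of the pathway were chosen with earlier results of these data known, so counts over them are a description only. They numbered 60, of which 37 passed the filter. The heterozygous group against the wild-type group and the DR5-12D group against the wild-type group called 0 of them, with 10 higher and 4 lower, then 0 higher and 8 lower, at an unadjusted p under 0.05. Over all tested genes 7.6% were higher and 6.51% lower, then 6.33% higher and 6.71% lower, at that p. The DR5-12D group against the heterozygous group called 6, and all 6 fell: Myd88, Cxcl1, Cxcl2, Icam1, Lcn2 and Saa3; over all tested genes 0.513% were called, 0.501% lower. Of these, 5 belong to the list of genes induced by IL-1, and Myd88 encodes the adaptor shared by IL-1 and Toll-like receptors.

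Among 8 tested IL-1 response genes, all 8 lay higher in the heterozygous group than in the wild-type group (median log2 fold change 1.89) and all 8 lower in the DR5-12D group than in the wild-type group (median −0.74). Of all 17753 tested genes, 9210 were higher in the first comparison and 8587 lower in the second. In the latter comparison 3 of the 8 had an unadjusted p under 0.05 and 3 did not overlap, each lower. Over all tested genes 6.71% were lower at that p and 11.4% did not overlap in that direction. With the dentate covariate 2 of the 8 were above 0, among them Cxcl2 (−0.11 without it and 0.090 with it). In the DR5-12D group against the heterozygous group all 8 lay lower, as did 8606 of all 17753 tested genes, with a median of −3.09 over the 8. Of these 8, 5 were called, where 0.513% of all tested genes were. This list was chosen with earlier results of these data known, so its counts are a description only. Cxcl2, among the 5, passed the filter only through the heterozygous group. Cxcl1, a neutrophil-attracting chemokine, was at 0.956, 2.61 and 0.615 FPKM in the wild-type group, 11.3, 23.8 and 44.9 in the heterozygous group and 0.366, 0.421 and 0.654 in the DR5-12D group. Its log2 fold change was −4.03 ± 0.46 in the DR5-12D group against the heterozygous group (adjusted p = 0.0173) and 3.42 ± 0.46 in the heterozygous group against the wild-type group (adjusted p = 0.0595). Within the heterozygous group, replicate 3 was highest for Cxcl1 as it was for Il1b.

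Icam1, an adhesion molecule of vessels and microglia, gave −3.40 ± 0.39 in the DR5-12D group against the heterozygous group (adjusted p = 0.0173), Cxcl2 −2.79 ± 0.38 (adjusted p = 0.0276), Lcn2, which binds bacterial siderophores, −4.14 ± 0.68 (adjusted p = 0.0457), and Saa3, an acute-phase protein, −4.55 ± 0.66 (adjusted p = 0.0334). Saa3 was 16.7, 41.9 and 13.1 FPKM in the wild-type group, 17.4, 118 and 25.9 in the heterozygous group and 0.747, 0.606 and 0.612 in the DR5-12D group. Cxcl2 was at 0.159, 0.256 and 0 FPKM in the wild-type group, 2.59, 7.34 and 11.7 in the heterozygous group and 0.0369, 0.0764 and 0.0297 in the DR5-12D group, so it passed the filter only through the heterozygous group, and unfiltered its adjusted p was 0.0734. For Saa3 the group that stood apart was the DR5-12D group, since the wild-type group and the heterozygous group overlapped. The 6 calls kept their direction in each of 20 alternative analyses and held in 6 of them for Lcn2, 8 for Myd88 and Saa3, 9 for Cxcl2 and 15 for Cxcl1 and Icam1. The summed neutrophil markers given above, mostly S100a8 and S100a9, were also lowest in the DR5-12D group.

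Myd88 was 3.61, 3.26 and 3.28 FPKM in the wild-type group, 3.97, 5.28 and 4.58 in the heterozygous group and 2.32, 2.45 and 2.48 in the DR5-12D group. The 3 groups did not overlap, and the DR5-12D group fell by 0.71 ± 0.094 on the log2 scale against the heterozygous group (adjusted p = 0.0269). Tab1, a subunit that activates the kinase TAK1, was −0.42 ± 0.095 in the heterozygous group against the wild-type group (adjusted p = 0.196).

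Of the decoys, Il1r2, which binds IL-1 without signalling, was at 0.288, 0.312 and 0.338 FPKM in the wild-type group, 0.736, 2.45 and 0.68 in the heterozygous group and 0.34, 0.221 and 0.257 in the DR5-12D group. Il1r2 passed the filter only through the heterozygous group, chiefly replicate 2. Its log2 fold change in the heterozygous group against the wild-type group was 0.72 ± 0.25 (adjusted p = 0.307). Il18bp, the soluble inhibitor of IL-18, was −0.36 ± 0.13 in the DR5-12D group against the heterozygous group (adjusted p = 0.410).

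Il33, an alarmin of the same family, was at 11.7, 11.6 and 12.1 FPKM in the wild-type group, 5.20, 4.90 and 8.16 in the heterozygous group and 7.36, 13.1 and 9.58 in the DR5-12D group. The heterozygous group lay below the wild-type group in every library, at −0.88 ± 0.21 (adjusted p = 0.206), against the direction of Il1a and Il1b. The 3 lowest values, 4.90, 5.20 and 7.36 FPKM, were those of the 3 libraries low in dentate granule cell markers. The part of dentate content in the Il33 values was not tested. Il33 was the only other ligand of the family to pass the filter.

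Only Aim2 of the other inflammasome sensors passed the filter, at −0.14 ± 0.13 in the heterozygous group against the wild-type group (adjusted p = 0.592). Nek7, the kinase that binds NLRP3 on activation, gave −0.24 ± 0.088 in that comparison (adjusted p = 0.319). Its FPKM was 5.69 to 5.86 in the wild-type group, 4.21 to 5.42 in the heterozygous group and 4.41 to 5.04 in the DR5-12D group. Both other groups thus lay below the wild-type group, as did 10% and 11.4% of all tested genes in the same order. P2rx4, an ATP-gated channel, gave −0.23 ± 0.22 in the DR5-12D group against the heterozygous group (adjusted p = 0.824). Casp8, a caspase of death receptor and inflammasome pathways, was −0.66 ± 0.14 (adjusted p = 0.122) and Gsdme, another gasdermin, 0.13 ± 0.078 (adjusted p = 0.731) in the same comparison.

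The genes whose log2(FPKM + 1) varied most like that of Il1b over the 9 libraries, among genes with a mean of at least 1 FPKM, were Cxcl2 (Pearson r = 0.995), Tnfaip3 (0.989), Cxcl1 (0.986), Gpr84 (0.981) and Itih3 (0.981). For Nlrp3 they were Il1a (0.979), Gm14023 (0.975), Gm17334 (0.972), Tnfaip2 (0.967) and Nfkbie (0.960). These coefficients describe 9 libraries that share 3 groups and, for Gm14023, exon bases with Il1a. No test was made of them.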

How the data were processed

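Total RNA of ventral hippocampus was sequenced, and the authors deposited FPKM per gene for 9 libraries; cutadapt, HISAT2, RSEM 1.2.30 and GRCm38 are named in the submitters' processing notes, without their order or settings. Groups come from the sample titles. Using merged exon lengths of GENCODE vM21, which held 53360 of the 53465 gene IDs, every deposited FPKM value of 16216 of the 17753 tested genes was a whole number of fragments within 0.02 of a fragment or the rounding of the table, and of the other 1537 (Gsdmd among them) at another length.

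The test was limma 3.58.1 (R 4.3.3) with an intensity trend on log2(FPKM + 1), computed here for the 9 libraries in 1 fit, two-sided, with no covariate. The filter was a mean of at least 0.5 FPKM over all libraries, and calls had an adjusted p under 0.05 over all tested genes. Levels of different genes are compared per length only. Il1rn was tested by exact permutation. The fit was checked on simulated data. The alternatives were other pseudocounts, filters and scalings, voom on the recovered fragments, the 2 compared groups alone, a replicate block, a dentate marker covariate and libraries left out.

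The 10 genes, the companion lists and the markers were chosen with earlier results of these data known. All 10 genes are named; of the companion genes, those called and the 2 with the smallest p in each list are named. The level of the targeted gene is not reported here.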

Additional observations from a re-analysis of the deposited data

How the results depend on the processing

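Over 20 alternatives, 9 of which left out 1 library each, the log2 fold changes of the 9 tested genes in 3 comparisons gave 525 values. Of these 473 kept direction and side of the threshold, 12 lost a call, 14 gained one and 26 changed sign, with no such value above 0.37 in the primary fit. FPKM totals differ between groups, and rescaling to TPM moved the median of all genes to −0.42 in the heterozygous group against the wild-type group and −0.33 in the DR5-12D group against the wild-type group. It then called 7451 genes (98 higher, 7353 lower) and 975 genes (28 higher, 947 lower), with 4 and 2 of the 9 among them, medians over the 9 of −0.12 and −0.88, and 5 of 9 called over 3 groups.

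In the heterozygous group against the wild-type group, genes called numbered 4 in the primary fit, 0 unfiltered (3538 had an unadjusted p under 0.05), 2 with voom, 1 with the dentate covariate and 41 without the 3 low-dentate libraries. That omission leaves 1 heterozygous library, replicate 3, which is the highest of the 9 libraries for Nlrp3, Il1a and Il1b and is assumed to vary like the others. These 3 of the 9 genes were then called in each comparison with it and over 3 groups, calls that rest on which library was left and add no support. In the DR5-12D group against the wild-type group, 5 genes were called in the primary fit, 0 unfiltered (3369 at that p), 0 with voom (2429), 41 with the 2 groups alone and 19 with the covariate. In the DR5-12D group against the heterozygous group, 91 were called in the primary fit, 30 unfiltered and 5 with the 2 groups alone. Il1b, the only call among the 9, was lost there unfiltered, with voom, with the 2 groups alone (adjusted p = 0.163) and with the block, leaving 0. A pseudocount of 0.1 called 1 of 9 over 3 groups. Medians over the tested genes moved to −0.75 with a pseudocount of 0.1 and −0.77 with voom in the DR5-12D group against the wild-type group. In the DR5-12D group against the heterozygous group they moved to −1.49 and −1.60 with those settings and −1.55 at a filter of 2 FPKM, and in the heterozygous group against the wild-type group to 1.15 at that filter. That filter leaves fewer of the 9 genes; otherwise the cause was not tested.

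Leaving out 1 library at a time called 0 to 25 genes in the heterozygous group against the wild-type group, 0 to 21 in the DR5-12D group against the wild-type group and 1 to 194 in the DR5-12D group against the heterozygous group. Of the 9 genes it called 0 to 1, 0 to 0 and 0 to 2, and 0 to 1 over 3 groups. Sign changes by such omissions were in Casp1 (−0.20 to 0.032), Casp4 (−0.17 to 0.16) and Il18 (−0.14 to 0.082) for the heterozygous group against the wild-type group, and in Il18 for the DR5-12D group against the wild-type group (−0.078 to 0.016) and against the heterozygous group (−0.10 to 0.12). In the other alternatives, Casp4 in the heterozygous group against the wild-type group became 0.0059 with quantile scaling, 0.056 with voom, 0.092 with the covariate and 0.29 without the low-dentate libraries, and Gsdmd −0.12 with TPM. With the covariate and without the low-dentate libraries, Il18 became 0.14 and 0.18 there, 0.057 and 0.010 in the DR5-12D group against the wild-type group, and −0.081 and −0.17 against the heterozygous group, where voom gave −0.0021. With the covariate Nlrp3 was 0.023 and Il1a 0.037 in the DR5-12D group against the wild-type group, and Il1r1 −0.18 against the heterozygous group.

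Whether same-numbered libraries were paired was not settled. Deviations from group means correlated at −0.350 to 0.497 over 9 same-numbered pairs, 2 of them above 0.1. Heterozygous replicate 1 and DR5-12D replicate 1, both low in dentate markers, correlated at 0.450. Heterozygous replicate 2 and DR5-12D replicate 1, numbered differently but also both low, reached 0.505. The check therefore cannot separate pairing from tissue content. The replicate block called 0, 0 and 40 genes in the 3 comparisons, and Il1b had an adjusted p of 0.0760 with it. Low counts limit Nlrp3, Casp4, Il1b and Il1rn in the DR5-12D group, where Il1rn has 1 or 2 fragments per library.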
